A study of Mus musculus with 2 samples.

Results

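Fibroblasts from parathyroid glands that mouse embryonic stem cells (ESCs) had formed in host mice were divided by the RNA of Gfp, the green fluorescent protein transgene in the deposited gene list. Of 4924 cell barcodes in 2 single-cell RNA-seq libraries, 680 were chosen by the following measured values as fibroblasts. They had at least 500 genes, under 15% mitochondrial UMIs (unique molecular identifiers, 1 per captured RNA) and under 1% Pth. Their Col1a1, Col1a2, Col3a1 and Dcn together made up at least 0.2% of UMIs, and each held at most 1 UMI of Ptprc and of Cdh5. Gfp-positive cells were selected on at least 400 counts of Gfp per 1000000 UMIs (CPM) and numbered 262, with 81 in replicate 1 and 181 in replicate 2. Gfp-negative cells had under 200 CPM and numbered 350, with 124 and 226. The 68 cells between the limits were left out of the comparison.

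Both libraries belong to 1 group. The hosts were Gcm2-/- mice on a BDF1B6 background, which had been complemented with mouse ESCs that carry Pth-tdTomato. Glands of 3 mice, 9 to 12 weeks old, were combined for replicate 1, and those of 5 mice, 6 to 13 weeks old, for replicate 2. Chimerism of blood cells was labelled as 50 to 70% and 60 to 70%. Each pool held males and females, and cells are not assigned to a mouse. The labels do not say whether the hosts or the ESCs carried Gfp, what drives it, or which ESC line was used.

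In complementation, donor ESCs that join the early embryo build a tissue for which the host lacks a gene. Gcm2 is a transcription factor required for parathyroid epithelium, which donor cells therefore supply, whereas connective tissue can come from host and donor cells alike. Fibroblasts build the stroma of the gland: they secrete collagens, elastin and proteoglycans, release growth factors and chemokines, and produce complement proteins. A reporter that marks 1 of the 2 sources would divide such a stroma, and the comparison asks how alike the fibroblasts on both sides of the Gfp limit are within the same glands.

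The Gfp level chose the sides, and its values are given as a description. Gfp stood at 1284 and 1787 CPM in the summed Gfp-positive cells of replicates 1 and 2 and at 64.8 and 50.3 CPM in the Gfp-negative cells. Single Gfp-positive cells ranged from 402.4 to 4859 CPM in replicate 1 and from 413 to 13047 in replicate 2. No Gfp UMI was found in 32.3% and 44.2% of the Gfp-negative cells. Just below and just above the lower limit lay cells of 189.8 and 203.7 CPM in replicate 1 and of 192.2 and 203.4 in replicate 2. At the upper limit the neighbours were 392.4 and 402.4, and 392.7 and 413. The histogram of Gfp levels shows cells on both sides in each library. Between the limits lay 24 and 44 cells, or 10.5% and 9.76% of the fibroblasts, and levels ran on across both limits.

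**Figure D1:**
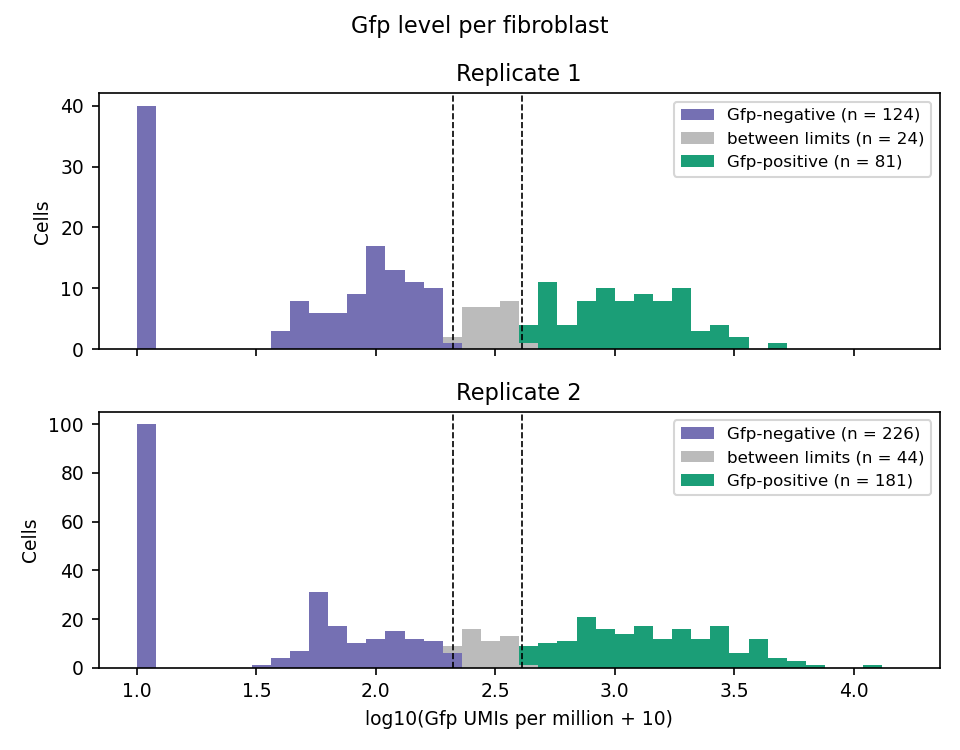
Gfp level per fibroblast, in log10 of Gfp CPM plus 10, against the number of cells, for replicate 1 (top) and replicate 2 (bottom). Colours mark Gfp-negative cells, cells between the limits and Gfp-positive cells, dashed lines mark 200 and 400 CPM, and the leftmost bar holds cells without a Gfp UMI; Gfp-positive cells number 81 and 181.

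The Gfp-positive share of all fibroblasts was 35.4% in replicate 1 (95% exact binomial interval 29.2 to 41.9) and 40.1% in replicate 2 (35.6 to 44.8). The 2 intervals overlap. The labelled chimerism refers to blood cells, another population, so no comparison is made with it. Intervals here and below cover counting error only.

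RNA free in the suspension can place Gfp in cells that do not make it. In cells with at least 5% Pth, which are parathyroid cells by that transcript, 35.7 and 24.7 Gfp UMIs were found per 1000 Pth UMIs. Pth itself, the hormone gene of the gland, stood at 1194 and 1361 CPM in the Gfp-positive fibroblasts and at 1189 and 1318 CPM in the Gfp-negative ones. At that ratio of Gfp to Pth, the Gfp-negative fibroblasts held 1.53 and 1.54 times the Gfp UMIs that would accompany their Pth, and the Gfp-positive fibroblasts 30.1 and 53.1 times. The limits on Gfp and Pth that chose the cells largely fix these multiples. They are given as a description and cannot check which cells make Gfp. The tdTomato reporter was at 70.1 and 106 CPM on the Gfp-positive side and at 70.3 and 84.7 CPM on the Gfp-negative side.

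Both sides carried the markers of fibroblasts that the limits did not use. Lum, a collagen-binding proteoglycan, was at 1516 and 1564 CPM in Gfp-positive and 1583 and 1639 CPM in Gfp-negative cells of replicates 1 and 2. Pdgfra, the receptor for platelet-derived growth factor on mesenchymal cells, was at 860 and 619 CPM against 765 and 628 CPM. Dpt, a matrix protein, was at 1081 and 1306 against 1086 and 1225 CPM. Pdgfra and Dpt were ordered by library, whereas both Gfp-positive values of Lum lay below both Gfp-negative ones. The 4 genes that chose the cells are given as a description: Dcn was at 11685 and 13306 CPM in Gfp-positive and 13738 and 13899 CPM in Gfp-negative cells, and Col1a1 at 1866 and 2013 against 1388 and 2095 CPM. Col3a1 was at 3754 and 3979 against 2957 and 4271 CPM, and Col1a2 at 3617 and 4161 against 2668 and 4262 CPM. Median depth was 23496 and 19207 UMIs per Gfp-positive cell and 20813 and 19752.5 per Gfp-negative cell.

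Markers of other cell types were summed on both sides. The 9 parathyroid markers summed to 1840 to 2029 CPM over the 4 sums, mostly Pth, while Gcm2, the gene the hosts lack, had 5 to 9 UMIs in each; a 3′ tag outside the deleted part would check nothing. The 8 endothelial markers summed to 82.8 to 143 CPM, with Tie1 at 0 in 3 of the 4 sums. The 8 macrophage markers summed to 15.5 to 25.8 CPM and the 6 Schwann cell markers to 70.5 to 90.0 CPM. The 6 thyroid follicular markers summed to 12.4 and 2.29 CPM in Gfp-positive and 9.76 and 9.12 CPM in Gfp-negative cells of replicates 1 and 2, with Pax8 and Nkx2-1 at 0 throughout. The 4 chondrocyte markers summed to 25.9 and 21.5 against 48.0 and 19.8 CPM, with Acan at 0 in every sum, and the 4 mesothelial markers to 22.1 and 34.4 against 19.5 and 52.3 CPM, with Msln at 0. These lists differed between the sides in 1 library and not alike in the other. For pericytes and smooth muscle, the 8 markers summed to 350.2 and 259.8 CPM in Gfp-positive and 235 and 232.2 CPM in Gfp-negative cells. Rgs5, Acta2 and Higd1b of that list were at 0 in the Gfp-negative cells of replicate 1. At least 3 UMIs of Rgs5, Acta2, Kcnj8, Higd1b and Myh11 together were found in 4 of 81 and 17 of 181 Gfp-positive cells, and in 4 of 124 and 8 of 226 Gfp-negative cells. The part of these other cell types in the results below was not tested, apart from the fit without cells holding pericyte UMIs.

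Xist RNA was found almost only in Gfp-negative fibroblasts. It coats the inactive X chromosome of female cells, and cells with a single X chromosome lack it. Among Gfp-positive fibroblasts, 0 of 81 cells of replicate 1 held a Xist UMI, which at 3 counts allows a share of cells with a UMI of up to 3.70%, and 1 of 181 cells of replicate 2 did, with 3 UMIs. Among Gfp-negative fibroblasts, 58 of 124 (46.8%, interval 37.8 to 55.9) and 114 of 226 (50.4%, 43.7 to 57.1) did. As summed levels, Xist was at 0 and 0.859 CPM in Gfp-positive cells and at 313 and 353.2 CPM in Gfp-negative cells. With every cell thinned to 10000 UMIs, the shares were 0% and 0% of 75 and 170 Gfp-positive cells and 46.1% and 52.1% of 115 and 215 Gfp-negative cells; 6 and 11 Gfp-positive and 9 and 11 Gfp-negative cells were too shallow. Tsix, transcribed antisense to Xist and not separable from it where strand is not used in counting, followed with 1 and 0 UMIs against 92 and 103. The plot of Xist against Gfp shows this for each cell.

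**Figure D2:**
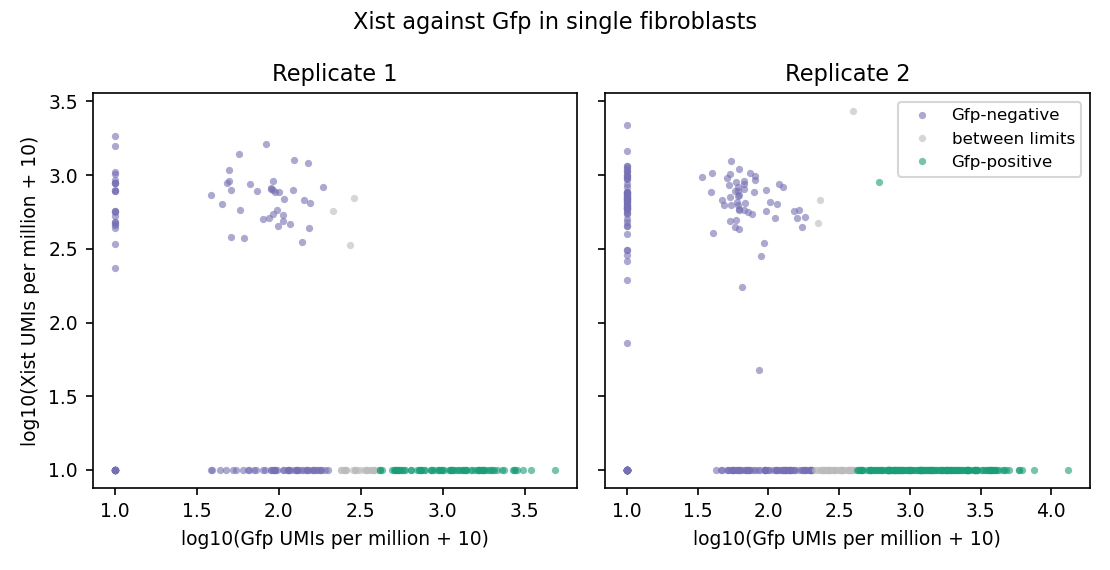
Xist level of each fibroblast against its Gfp level, both in log10 of CPM plus 10, for replicate 1 (left) and replicate 2 (right). Each point is a cell, coloured by its side; cells with a Xist UMI lie among the Gfp-negative cells, apart from 1 Gfp-positive cell of replicate 2 and a few between the limits.

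Genes of the Y chromosome were scarce on both sides. Ddx3y, Eif2s3y, Kdm5d and Uty, expressed in many male tissues, together gave 1 UMI in 1 of 81 Gfp-positive cells of replicate 1 and 21 UMIs in 6 of 181 cells of replicate 2. In Gfp-negative cells they gave 24 UMIs in 5 of 124 cells and 83 UMIs in 20 of 226 cells. As levels, that is 0.540 and 6.02 CPM against 9.37 and 18.5 CPM. All but 1 of the Gfp-negative cells with a Y-linked UMI had no Xist UMI. Most cells without Xist thus had no Y-linked UMI either. They were 80 of the 81 and 174 of the 180 such Gfp-positive cells. On the Gfp-negative side they were 62 of the 66 and 92 of the 112 cells without Xist.

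Other X-linked genes differed less. Ddx3x, an RNA helicase whose gene escapes X inactivation, was at 302 and 336 CPM in Gfp-positive and 372 and 389 CPM in Gfp-negative cells, and the counting intervals did not overlap within either library. Eif2s3x, a translation initiation factor that also escapes, was at 35.1 and 43.5 against 51.1 and 50.7 CPM, with overlapping intervals. Kdm6a was at 110.6 and 77.9 against 122.6 and 98.1 CPM, with intervals that overlapped in replicate 1 and not in replicate 2. Kdm5c was at 58.8 and 55.0 against 63.6 and 53.8 CPM. Over 224 X-linked genes of at least 20 CPM, the median log2 ratio of Gfp-positive to Gfp-negative cells was 0.013 in replicate 1 and 0.018 in replicate 2, beside -0.0017 and 0.0067 over 6116 autosomal genes. These are descriptions of the sums, with no test.

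The autosomal transcriptome differed little between the sides. UMI counts were summed per library and side, and edgeR's quasi-likelihood test with library as a block was applied to 11301 autosomal genes. With Benjamini-Hochberg adjustment and a threshold of 0.05, 0 genes were called higher in Gfp-positive cells (0%) and 1 was called lower (0.00885%). At an unadjusted p of 0.05, 324 genes were higher (2.87%) and 256 lower (2.27%), or 5.13% of those tested. DESeq2's Wald test called 0 genes and found 38 higher and 19 lower at an unadjusted p of 0.05. With 2 pairs of sums, 1 residual degree of freedom remained, and the count of calls moved with the settings, from 0 to 125 genes, as given in the closing section.

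Among the 3307 autosomal genes of at least 50 CPM on 1 side, the median absolute log2 fold change was 0.083, and 95% of them lay within 0.31, or 1.24-fold. The difference was under 1.2-fold for 92.0% of these genes and under 1.5-fold for 99.4%. The median standard error (SE) of the log2 fold change was 0.12, larger than the median difference. The log2 ratio of a gene had the same sign in both libraries for 52.9% of these genes, and the ratios of the libraries correlated across genes with a Pearson r of 0.068; genes are not independent replicates. The plot of ratios by library shows most genes in a cloud around 0.

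**Figure D3:**
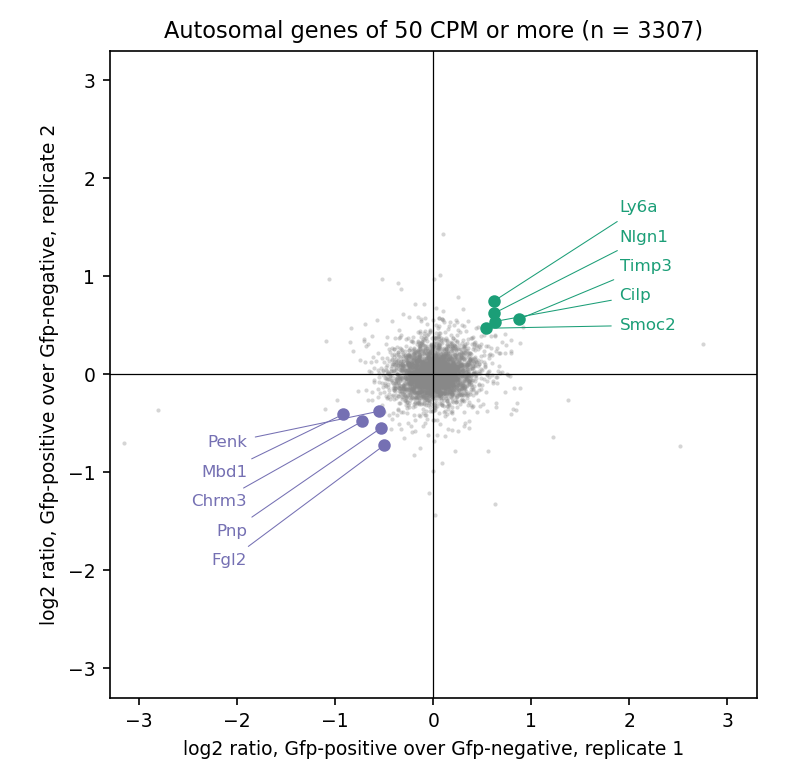
Log2 ratio of Gfp-positive to Gfp-negative fibroblasts in replicate 1 (x axis) against replicate 2 (y axis) for the 3307 autosomal genes of at least 50 CPM; each point is a gene. The coloured points are the 5 genes of smallest p in each direction, none of which passed the adjusted threshold; the single far points along the x axis are genes that differed in replicate 1 and hardly in replicate 2.

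Slc15a2 was the 1 autosomal gene that passed. It encodes a proton-coupled transporter of small peptides (ENSMUSG00000022899, chromosome 16, 36750177 to 36784962, minus strand, GRCm38). No UMI was found in either Gfp-positive sum, which allows up to 1.62 and 0.859 CPM at 3 counts per library. Gfp-negative cells held 39 UMIs (15.2 CPM) in replicate 1 and 130 UMIs (28.9 CPM) in replicate 2. Against that limit of 3 counts, Gfp-positive cells were at least 9.40-fold and 33.6-fold lower (edgeR quasi-likelihood test, adjusted p = 0.0309 over all tested genes). A UMI was found in 17 of 124 (13.7%) and 52 of 226 (23%) Gfp-negative cells, and no single cell held more than 7. It lies under the 50 CPM that the rule for naming genes asks for, and is named here because it is the only call.

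Over 14 alternative fits, Slc15a2 was lower in each of the 12 that tested it and was called in 10 of them. It missed the threshold without the library as a replicate block and with DESeq2, and the adjusted p over the alternatives ranged from 2.98e-32, in the fit without a count filter, to 1.00. In the Gfp-negative cells its UMIs went with Xist. Cells with a Xist UMI held 29.5 (95% interval 20.5 to 41.3) and 50.0 CPM (41.2 to 60.1) of Slc15a2, and cells without one 3.54 (1.15 to 8.27) and 7.22 CPM (4.13 to 11.7). The interval without Xist reached below the Gfp-positive limit of 3 counts (1.62 CPM) in replicate 1 and lay above it (0.859 CPM) in replicate 2. With cells without Xist on both sides, Slc15a2 did not reach the count filter and 0 genes were called; 0 Gfp-positive cells of replicate 1 and 1 of replicate 2 hold Xist, so Gfp side and Xist cannot be told apart for the rest.

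The same transporter gene was also higher on the Gfp-negative side of endothelial and immune cells of these glands, and no such difference was detectable in cells rich in Pth. In cells with over 1 UMI of the endothelial gene Cdh5, Slc15a2 was at 1.60 and 0.786 CPM on the Gfp-positive side and at 61.5 and 22.95 CPM on the Gfp-negative side, while Xist was at 4.79 and 13.4 against 310.2 and 295 CPM. In cells with over 1 UMI of the leukocyte gene Ptprc, Slc15a2 was at 5.01 and 12.5 against 65.9 and 125 CPM. In cells with at least 5% Pth, it was at 1.23 and 0.501 CPM in 668 and 2047 Gfp-positive cells and at 0 and 1.198 CPM (interval 0.326 to 3.07 in replicate 2) in 2 and 108 Gfp-negative cells, and Xist was at 1.55 and 1.44 against 0 and 2.69 CPM. These cells were no part of the fit, and no test was made on them.

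A pair of complement genes showed a like split without passing the test; they were chosen after their values were seen. C1r and C1s are the proteases that start the classical complement cascade, and the mouse has 2 neighbouring copies of each on chromosome 6: C1ra (124512405 to 124523443), C1s1 (124530345 to 124542359), C1rb (124570294 to 124581171) and C1s2 (124624625 to 124636085). C1rb was at 0.540 and 0 CPM in Gfp-positive and 7.81 and 9.79 CPM in Gfp-negative cells (log2 fold change -5.31, SE 0.79, edgeR adjusted p = 0.174). C1s2 was at 1.08 and 0.859 against 8.20 and 8.45 CPM (log2 fold change -3.10, SE 0.50, edgeR adjusted p = 0.202). The Gfp-positive values rest on 1 and 0 UMIs of C1rb and on 2 and 3 UMIs of C1s2. They lie at or under the limit of 3 counts, so the 2 fold changes are no measured sizes.

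The other copies did not show it. C1ra was at 273 and 180 CPM in Gfp-positive and 237 and 169 CPM in Gfp-negative cells, and C1s1 at 443.5 and 425 against 443 and 399 CPM. The copies are close in sequence, and how the authors' counting divided reads between them is uncertain. Within Gfp-negative cells, C1rb was at 14.8 and 19.3 CPM with a Xist UMI and at 2.13 and 0 CPM without one, and C1s2 at 14.8 and 16.2 against 2.84 and 0.451 CPM. C1ra was at 243 and 169 against 232 and 168 CPM in the same cells. The plot of these 5 genes by Gfp side and Xist shows low values of Slc15a2, C1rb and C1s2 in Gfp-negative cells without a Xist UMI and in Gfp-positive cells.

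**Figure D4:**
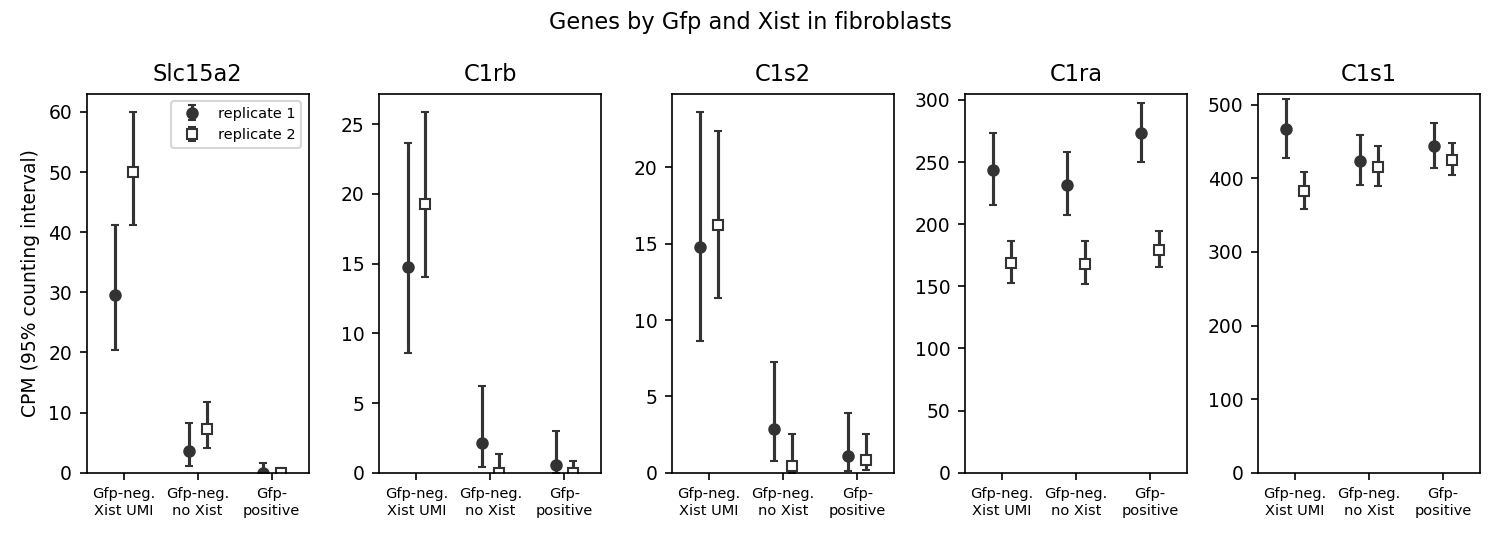
Level of Slc15a2, C1rb, C1s2, C1ra and C1s1 in CPM for Gfp-negative fibroblasts with a Xist UMI, Gfp-negative fibroblasts without one, and Gfp-positive fibroblasts; filled circles are replicate 1, open squares replicate 2, and bars are 95% Poisson intervals for counting error or, where no UMI was found, reach the limit of 3 counts. C1ra and C1s1 lie at like levels in all 3 sets of cells, while the first 3 genes are highest in the first set.

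The 5 genes of smallest p among those higher in Gfp-positive cells, at 50 CPM or more with the same sign in both libraries, did not pass. Timp3, an inhibitor of matrix metalloproteinases bound to the matrix (chromosome 10, 86300372 to 86349506), was at 276 and 279 CPM in Gfp-positive and 150.3 and 187 CPM in Gfp-negative cells (log2 fold change 0.71, SE 0.11, edgeR adjusted p = 0.174). Both Gfp-positive values lay above both Gfp-negative ones. In 1 cell of each library lay 16.8% and 13.3% of the Gfp-positive UMIs. Without the cell of most UMIs in each sum, Timp3 was at 232 and 243 against 141 and 169 CPM. Ly6a, the surface protein Sca-1 of mesenchymal progenitors (chromosome 15, 74994877 to 74998031), was at 146 and 172 against 94.8 and 102 CPM (0.70, SE 0.10, edgeR adjusted p = 0.174). In replicate 1, 29.5% of its Gfp-positive UMIs came from 1 cell, and without that cell it was at 105 CPM. In the endothelial cells above, Timp3 was at 2479 to 3689 CPM and Ly6a at 1284 to 1999 CPM. The part of endothelial RNA in these values was not tested.

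Nlgn1, a neuroligin known from synapses (chromosome 3, 25426215 to 26332460), was at 159 and 169 CPM in Gfp-positive and 103 and 109 CPM in Gfp-negative cells (log2 fold change 0.62, SE 0.10, edgeR adjusted p = 0.202). Smoc2, a calcium-binding matrix protein (chromosome 17, 14279506 to 14404790), was at 247 and 234 against 170.2 and 168 CPM (0.50, SE 0.093, edgeR adjusted p = 0.318). Cilp, a protein of cartilage and stromal matrix (chromosome 9, 65265180 to 65280605), was at 128 and 75.6 against 82.7 and 51.6 CPM (0.59, SE 0.12, edgeR adjusted p = 0.377). Its values differed as much between libraries as between sides. Over the 14 alternatives, Timp3, Ly6a and Nlgn1 were each called in 4, and Smoc2 and Cilp in 2.

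The 5 genes of smallest p in the other direction did not pass either. Pnp, purine nucleoside phosphorylase (chromosome 14, 50931082 to 50965237), was at 336 and 404 CPM in Gfp-positive and 486 and 587 CPM in Gfp-negative cells (log2 fold change -0.54, SE 0.077, edgeR adjusted p = 0.174). It was called in 7 of the 14 alternatives. Its gene model contains the near copy Pnp2 (50955992 to 50964749), so the division of reads between them is uncertain. Penk, the precursor of enkephalin peptides (chromosome 4, 4133531 to 4138819), was at 633 and 647 against 928 and 834 CPM (-0.46, SE 0.075, edgeR adjusted p = 0.202) and was called in 6.

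Fgl2, a fibrinogen-like prothrombinase (chromosome 5, 21372642 to 21378374), was at 82.0 and 68.5 CPM in Gfp-positive and 116 and 113 CPM in Gfp-negative cells (log2 fold change -0.63, SE 0.12, edgeR adjusted p = 0.329). Chrm3, a muscarinic acetylcholine receptor (chromosome 13, 9875486 to 10360847), was at 89.0 and 108 against 147 and 149.9 CPM (-0.59, SE 0.11, edgeR adjusted p = 0.329). Mbd1, which binds methylated DNA (chromosome 18, 74267605 to 74282732), was at 159 and 263 against 301 and 347 CPM (-0.64, SE 0.12, edgeR adjusted p = 0.361). Each of these 3 was called in 2 alternatives. Within the Gfp-negative cells, Penk did not follow Xist: it was at 943 and 839.9 CPM with a Xist UMI and at 916 and 829 CPM without. Pnp was at 533 and 748 against 447 and 422 CPM. The plot of these 10 genes shows every line slope the same way in both libraries, which the choice of the genes required.

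**Figure D5:**
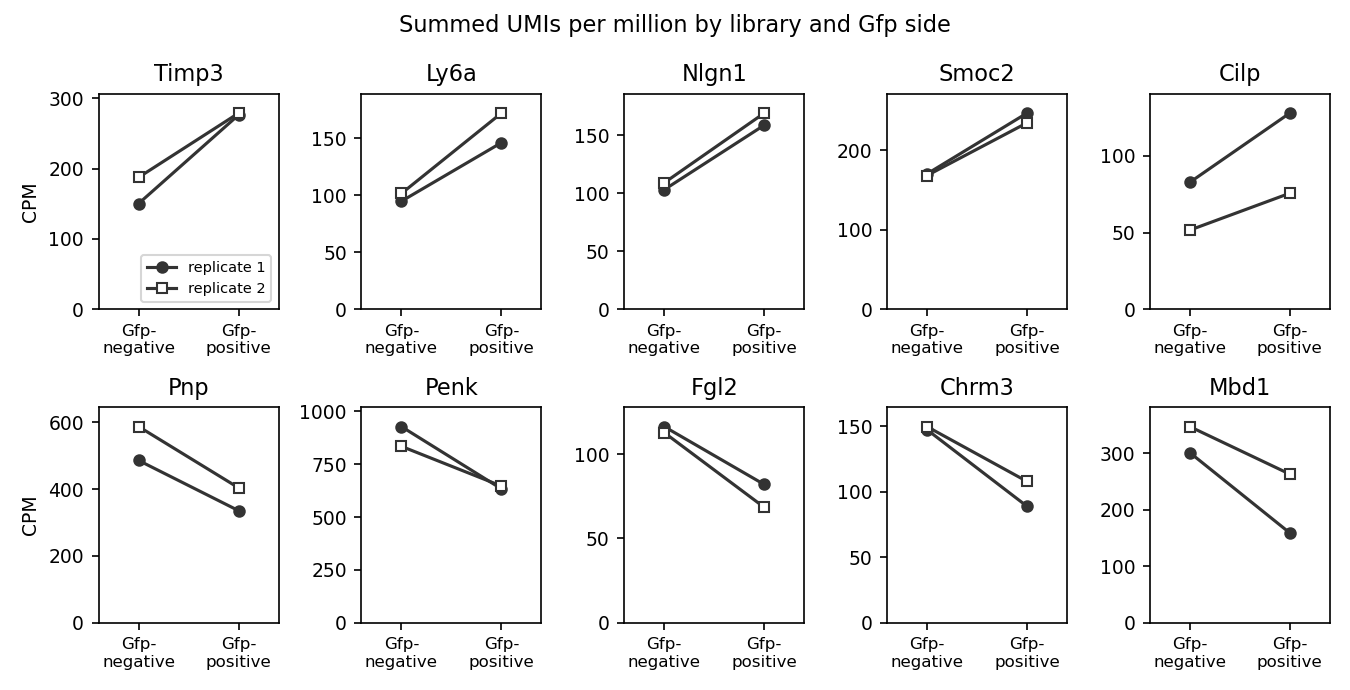
Level in CPM of the 5 genes of smallest p in each direction (top row higher, bottom row lower in Gfp-positive cells), in the summed Gfp-negative and Gfp-positive fibroblasts. Filled circles are replicate 1 and open squares replicate 2, a line joins the 2 sides of a library, and each y axis starts at 0; none of the 10 passed the adjusted threshold.

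By size alone, 20 genes (0.177% of those tested) were at least 1.5-fold higher in Gfp-positive cells in both libraries with at least 20 CPM, and 10 (0.0885%) were as much lower. These include genes named here after their values were seen, several of which rested on single cells. Rgs5, a pericyte gene, was at 32.4 and 14.3 CPM in Gfp-positive and 0 and 1.56 CPM in Gfp-negative cells, and 1 cell held 96.7% and 94.0% of the Gfp-positive UMIs. Without that cell in each library it was at 1.09 and 0.861 CPM. Acta2, smooth muscle actin, was at 36.7 and 4.01 against 0 and 1.11 CPM, with 97.1% of the UMIs of the first value from 1 cell. Postn, the matrix protein periostin, was at 56.1 and 22.6 against 12.1 and 8.90 CPM, and at 26.8 and 16.6 CPM on the Gfp-positive side without the cell of most UMIs.

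Cells with pericyte UMIs were the larger share on this side, as given above, and the fit was repeated without the cells of at least 3 such UMIs, an alternative chosen after the values were seen. It called 11 genes higher and 7 lower (0.162% of 11134 tested), with Slc15a2 among the lower. Thy1, a surface marker of many fibroblasts, was at 39.9 and 37.2 CPM in Gfp-positive and 25.4 and 23.4 CPM in Gfp-negative cells, with at most 8.11% of UMIs in 1 cell (log2 fold change 0.66, SE 0.16, edgeR adjusted p = 0.566). Klhl33, a neighbour of Pnp on chromosome 14 (50888582 to 50897507), was at 6.47 and 9.17 against 22.6 and 21.3 CPM. It too was highest in Gfp-negative cells with Xist, at 31.3 and 36.0 CPM, against 15.6 and 6.32 CPM without. Gimap6, a GTPase known from lymphocytes, was at 12.4 and 11.2 against 23.03 and 25.1 CPM.

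Gene lists were read in the same fit. They held 494 entries tested outside the genes that chose the cells, and 0 members were called in either direction. Of all 11301 tested genes, 0% were called higher and 0.00885% lower. A list with 0 calls is therefore near the share of all genes and is no result about that list. The median log2 fold change of all tested genes was -0.0013. At an unadjusted p of 0.05, 2.87% of all tested genes were higher and 2.27% lower. The counts at that p below stand beside these shares, and no set test was run on a list. For 8 of the 16 lists with tested members the median had opposite signs in the 2 libraries.

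Among fibrillar and associated collagens, 0 of 18 tested members passed, and the median log2 fold change was 0.055; at an unadjusted p of 0.05, 1 was higher and 1 lower. Col4a1, a basement membrane chain, was at 932 and 904 CPM in Gfp-positive and 810 and 969 CPM in Gfp-negative cells. Col14a1, which sits on collagen fibrils, was at 575 and 593 against 463 and 482 CPM (log2 fold change 0.30, SE 0.072, edgeR adjusted p = 0.604). Of matrix glycoproteins and proteoglycans, 0 of 46 passed, the median was 0.035, and 6 were higher and 3 lower at an unadjusted p of 0.05. Lama2, a laminin chain, was at 2665 and 2325 against 2742 and 2276 CPM, and Eln, tropoelastin, at 453 and 445 against 338 and 374 CPM. Of matrix remodelling enzymes and inhibitors, 0 of 40 passed, with a median of -0.011 and 4 members each way. Pappa, a protease of IGF-binding proteins, was at 818 and 691 against 972 and 805 CPM.

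Growth factors, their receptors and binding proteins had 0 of 44 members past the threshold and a median of 0.0037, with 7 higher and 2 lower at an unadjusted p of 0.05. Igf1, the insulin-like growth factor, was at 1601 and 2209 CPM in Gfp-positive and 1725 and 2476 CPM in Gfp-negative cells. Igfbp5, which binds it, was at 237 and 329 against 197 and 244 CPM, and Angpt1, the ligand of the endothelial receptor Tie2, at 116 and 92.5 against 69.1 and 74.7 CPM. Wnt signalling had 0 of 28, a median of 0.051, and 3 higher and 1 lower. The secreted Wnt inhibitor Sfrp1 was at 635 and 502 against 658 and 538 CPM, and Tcf7l2, a nuclear effector, at 399 and 297 against 547 and 330 CPM.

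Immune genes of fibroblasts gave no calls, like nearly all tested genes. Chemokines, cytokines and complement had 0 of 35 members past the threshold, a median of -0.0073, and 3 members each way at an unadjusted p of 0.05. Serping1, the C1 inhibitor, was at 1052 and 1087 CPM in Gfp-positive and 1173 and 1116 CPM in Gfp-negative cells, and C3, the central complement protein, at 762 and 646 against 740 and 720 CPM. Ccl7, a monocyte chemokine, was at 38.8 and 15.2 against 55.8 and 30.0 CPM, with 34.3% of the UMIs of the third value from 1 cell. The complement gene C7 differed more, at 1.08 and 56.2 against 14.8 and 91.2 CPM (log2 fold change -0.95, SE 0.30, edgeR adjusted p = 0.840). Its first value lay under the limit of 3 counts. MHC and interferon response genes had 0 of 56, a median of -0.00013, and 3 each way. H2-K1, a class I heavy chain, was at 247 and 220 against 228 and 241 CPM, and B2m, its light chain, at 662 and 557 against 596 and 603 CPM.

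Transcription factors of position and mesenchyme had 0 of 39 members past the threshold and a median of 0.0072. Ebf1, expressed by stromal cells, was at 552 and 438 CPM in Gfp-positive and 614 and 529 CPM in Gfp-negative cells, and Foxp1 at 271 and 188 against 228 and 137 CPM. Prrx1, a factor of limb and head mesenchyme, was at 326 and 332 against 323 and 351 CPM. Imprinted genes, whose RNA comes from 1 parental allele, had 0 of 48, a median of -0.018, and 1 member each way at an unadjusted p of 0.05. Gnas was at 1104 and 1160 against 1132 and 1053 CPM, and Meg3 at 674 and 542 against 832 and 530 CPM. H19 was at 190 and 20.3 against 81.6 and 31.8 CPM, higher on the Gfp-positive side of replicate 1 and lower on that of replicate 2.

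Lists of fibroblast state gave 0 calls, again near the share of all tested genes. Universal and adventitial fibroblast genes had 20 tested members, a median of 0.046 (-0.16 in replicate 1 and 0.14 in replicate 2), and 5 higher and 2 lower at an unadjusted p of 0.05, among them Ly6a, Thy1 and Penk. Pi16, of adventitial fibroblasts, was at 29.7 and 55.3 CPM in Gfp-positive and 21.1 and 16.9 CPM in Gfp-negative cells, and 1 cell held 30.9% and 32.1% of the Gfp-positive and 66.7% and 30.3% of the Gfp-negative UMIs. Without the cell of most UMIs in each sum it was at 20.8 and 37.7 against 7.10 and 11.8 CPM. Contractile and myofibroblast genes had 14 tested members, a median of 0.14 (0.36 in replicate 1 and -0.019 in replicate 2), and 3 higher at an unadjusted p of 0.05, Ccn2, Acta2 and Tpm1; 66.7% of the Ccn2 UMIs of replicate 1 came from 1 cell. Vim, the intermediate filament of mesenchyme, was at 1316 and 1536 against 1276 and 1418 CPM. Adipogenic and lipid genes had 22, a median of -0.019, and 1 higher and 3 lower. Apoe, the apolipoprotein, was at 1274 and 1568 against 1562 and 1818 CPM (log2 fold change -0.26, SE 0.061, edgeR adjusted p = 0.543).

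Immediate early and dissociation stress genes, which digestion can induce, had 0 of 35 members past the threshold and a median of -0.055, with 0 higher and 2 lower at an unadjusted p of 0.05. Egr1 was at 4748 and 4563 CPM in Gfp-positive and 4795 and 4608 CPM in Gfp-negative cells. Jun, the lower member of smallest p, was at 2549 and 2848 against 2810 and 3276 CPM. Cell cycle genes had 0 of 15 and a median of 0.12, with Cdkn1a, an inhibitor of the cycle, at 200.2 and 327 against 183 and 276 CPM. Genes of protein folding in the endoplasmic reticulum had 0 of 31 and a median of 0.029, with the chaperone Hspa5 at 749 and 712 against 648 and 813 CPM. Genes that vary in copy number between common mouse strains had 0 of 3 tested members called, with Glo1, a detoxifying lyase, at 46.9 and 48.7 against 48.0 and 54.9 CPM.

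The division by marker pairs gave classes whose counting intervals overlapped between the sides. Each fibroblast was placed by its highest score for A2m with Spon1, Pappa2 with Cilp, or Apod with Cxcl14, or called other; 152 cells (22.4%) lay near a limit, and these classes are ranges rather than types. Cells led by A2m and Spon1 made up 16.0% (95% exact binomial interval 8.83 to 25.9) of Gfp-positive and 21.0% (14.2 to 29.2) of Gfp-negative cells in replicate 1, and 39.8% (32.6 to 47.3) and 43.4% (36.8 to 50.1) in replicate 2. Cells led by Pappa2 and Cilp made up 28.4% and 33.1% in replicate 1 and 19.3% and 15.9% in replicate 2. Cells led by Apod and Cxcl14 made up 42.0% and 37.1%, and 26.0% and 31.9%. Other cells made up 13.6% and 8.87%, and 14.9% and 8.85%, a larger share on the Gfp-positive side in both libraries. After thinning to 10000 UMIs they made up 13.3% and 12.2% in replicate 1 and 17.1% and 10.7% in replicate 2. The intervals of the sides overlapped for every class in both libraries, also after thinning to 10000 UMIs, whereas the interval of the A2m and Spon1 share lay higher in replicate 2 than in replicate 1 on each side. Shifts within those intervals were not detectable at these cell counts.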

How the data were processed

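Per the file headers and the submitters' processing notes, the values the authors deposited are raw UMI counts for each gene in each barcode, made with Cell Ranger 7.0.0 on mm10; the calling of cells is not stated there. Enzymes dissociated the glands, flow cytometry removed doublets and a 3′ droplet kit was used, per the labels' protocols. The libraries held 41517620 and 88283761 UMIs in 1406 and 3518 barcodes, of which 3 barcodes were shared between libraries and 0 among fibroblasts.

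Cells, sides and limits are as given in the report. Counts were summed per library and side, and CPM are these sums scaled to 1000000. The 4 sums were fitted with edgeR 4.0.16 (TMM, filterByExpr, quasi-likelihood test, terms library and side, Benjamini-Hochberg over 11301 autosomal genes). Library was a block because both sides of a library come from the same pooled mice, so that each library pairs its sides. SE is the log2 fold change over the root of its F value. The replicates are separate pools. A p-value sets the side difference against its spread between them, but the gene itself gives only 1 residual degree of freedom. Another 7.28 come from the spread shared across genes, so most of that spread is not the gene's own. The fit was tested on simulated data, with 50 genes each changed 0.25-, 0.5-, 2- and 4-fold. It called 50, 36, 49 and 50 of them, and also 7 of 11101 unchanged genes. The changed genes were drawn only from those of higher counts. DESeq2 1.42.0 was an alternative. Scrublet predicted 23 and 6 doublets, 0 of them fibroblasts. Positions are from GENCODE vM21 (GRCm38).

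Named genes were those called at 50 CPM or more with the same sign in both libraries, filled up to 5 per direction by smallest p. Each list adds its uncalled member of highest CPM; other members were chosen after their values were seen. The members, lists and tests were chosen with earlier results of these data known, and the scoring of marker pairs (within 0.25 of a limit counts as near) was set after seeing the data.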

Additional observations from a re-analysis of the deposited data

How the results depend on the processing

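Counts of calls moved with the settings, and 1 residual degree of freedom limits them. Genes called higher numbered 68 without the count filter, 9 with Gfp-positive cells at 800 CPM or more against cells with no Gfp UMI, 4 at a single limit of 300, 3 in cells of at least 10000 UMIs, 11 with cells thinned to 10000 UMIs and 10 with Pth under 0.2%. In the same order, 57, 14, 3, 4, 10 and 4 were called lower, together 0.626, 0.237, 0.0609, 0.0625, 0.222 and 0.125% of the genes tested. Of 592, 463, 499, 488, 454 and 489 list members tested, 25, 6, 2, 3, 7 and 6 were called (4.22, 1.3, 0.401, 0.615, 1.54 and 1.23%); the lists were chosen with earlier results known. Of alternatives chosen after seeing the data, Gfp-negative cells with a Xist UMI only gave 2 higher and 7 lower (0.0861%) and 1 of 474 list members, leaving out cells with pericyte UMIs gave 11 and 7 (0.162%) and 6 of 487, and cells with no Xist UMI on both sides gave 0 lower. Without the replicate block 0 genes were called lower, and 72 were higher and 56 lower at an unadjusted p of 0.05. Slc15a2 was then at a log2 fold change of -9.13 (edgeR adjusted p = 1.00). With 0 UMIs in both Gfp-positive sums, that value is no measured size. DESeq2 and marker group as a term also called 0 lower; under the latter and with no Xist on both sides Slc15a2 was not tested. DESeq2 size factors and fibroblast genes at 1% or more gave 0 higher and 1 lower, Slc15a2. No fibroblast was a predicted doublet, so that leaving doublets out changed no cell and is not counted as an alternative. The causes were not tested. The Gfp-positive share was 24.0% and 29.3% at 800 CPM. Xist in Gfp-negative cells was at 342.5 and 450.2 CPM at the limits of 800 and 0 and at 291.6 and 325.2 CPM at 300; in Gfp-positive cells of replicate 2 it was at 0 CPM at 800 and in deep cells, and at 2.56 CPM at 300. Leaving out a library leaves 1 pair, which gives log2 ratios with no test. Cells with a Y-linked UMI were too few (1 and 6 Gfp-positive) for a fit on such cells alone, which was not run. Depth limits genes under about 1 CPM: 3 counts are 1.62 and 0.859 CPM in the Gfp-positive sums.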

Other observations

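Some genes divided the Gfp-negative fibroblasts, wholly or mainly in 1 library, and went with Xist there. They were chosen after their values were seen, and none was tested for this. Ifi202b, an interferon-inducible DNA sensor (chromosome 1, 173962568 to 173982744), had 243 UMIs (94.8 CPM) in 36 of 124 Gfp-negative cells of replicate 1. Of these UMIs, 242 lay in cells with a Xist UMI, 60.3% of which held Ifi202b, and 1 in cells without. It had 0 UMIs in the Gfp-positive cells of both libraries and in the Gfp-negative cells of replicate 2, and did not reach the count filter. Tpm3-rs7, a near copy of the tropomyosin gene Tpm3 whose reads cannot be surely placed, was at 46.1 CPM in Gfp-negative cells with a Xist UMI in replicate 2 and at 6.08 CPM in those of replicate 1. It was at 0.902 and 0.709 CPM in Gfp-negative cells without Xist, and at 1.15 and 1.62 CPM in Gfp-positive cells. Gm8797 was at 71.9 CPM in the first of these sets and at 6.47 to 10.8 CPM in the 5 others. In other cells Tpm3-rs7 was not confined to replicate 2. Endothelial cells of replicates 1 and 2 had 1.60 and 4.72 CPM of it on the Gfp-positive side and 39.1 and 35.2 CPM on the Gfp-negative side. Immune cells had 2.78 and 4.15 against 26.0 and 55.4 CPM. The pools hold 3 and 5 mice and cells are not assigned to a mouse, so that differences between mice and between sides cannot be told apart.

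Ly6d, a surface protein known from B cells and keratinocytes, had 90 UMIs (25.8 CPM) in Gfp-positive cells of replicate 2 and 0 in the 3 other sums; 1 cell held 89 of the 90, and without it Ly6d was at 0.288 CPM. Sntg1, a syntrophin, was at 64.2 and 202 CPM in Gfp-positive and 455 and 259 CPM in Gfp-negative cells, 7.08-fold lower in replicate 1 and 1.28-fold lower in replicate 2 (edgeR adjusted p = 0.840).

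The fibroblasts between the Gfp limits, 24 and 44 cells, were in no comparison. Slc15a2 was at 5.77 and 4.57 CPM in them (3 and 4 UMIs), C1rb at 7.69 and 0 CPM and Pnp at 467 and 337 CPM. Penk, at 923 and 721 CPM, and Smoc2, at 196 and 189 CPM, lay between the sides in both libraries. Nlgn1, at 377 and 260 CPM, lay above both sides in both libraries, and Timp3, at 67.3 and 169 CPM, below both. C1ra was at 277 and 169 CPM, close to its level on both sides.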
